A study of Diospyros kaki with 21 samples.

Results

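DkERF16, DkERF18 and DkERF19 are persimmon (Diospyros kaki) ethylene response factors, and each was followed here as a single unigene, an assembled transcript cluster. The unigenes were Cluster-16487.217803 for DkERF16 (999 bases), Cluster-16487.22306 for DkERF18 (718 bases) and Cluster-16487.205447 for DkERF19 (1042 bases). They were taken by annotation, because the protein and nucleotide database descriptions name the persimmon gene. The rule itself uses no expression value, although the genes were picked with earlier results of these data known. They are 3 of 261970 unigenes in the series and 3 of 127 unigenes named for a persimmon ERF. The reads were assembled without a genome, so no chromosomal position is given.

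RNA-seq was performed on the flesh of mature fruit of 'Jingmianshi', an astringent cultivar, in 7 groups of 3 libraries each (A, B and C). Control fruit were sampled at 0 d (CK 0 d). The other fruit spent 1 d in air-tight containers and were sampled after 1 d and after 4 d in storage, with air in the container for CK, a high level of CO2 for CO2, and a high level of CO2 together with 1-methylcyclopropene for CO2+1-MCP. After the container, all fruit were kept in air. High CO2 is used to remove astringency and is followed by softening, and 1-MCP, a gas that blocks ethylene receptors, is used to keep fruit firm. The study describes the replicates as biological, but the labels do not give how many fruit went into a library. The p-values below therefore set group differences against the spread between these libraries, which may not be the spread between fruit.

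ERFs form a large plant family of transcription factors with an AP2 domain, which binds short GC-rich promoter elements such as the GCC box. Ethylene is sensed by membrane receptors that hold the pathway off in the absence of the hormone, and once the receptors bind ethylene, EIN2 and the EIN3/EIL transcription factors switch on ERF genes, while the F-box proteins EBF1 and EBF2 remove EIN3. In persimmon, DkERF16 and DkERF19 have been described earlier as activators of the promoter of DkXTH9, a gene of the xyloglucan endotransglucosylase/hydrolases (XTHs) that remodel cell wall xyloglucan. By Swiss-Prot, the closest Arabidopsis proteins were ERF003 for DkERF16, ERF106 for DkERF18 and ERF1B, a factor acting below EIN3 in Arabidopsis, for DkERF19. All of them carried the AP2 domain.

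Libraries held 14644843 to 24943140 counts. In CO2+1-MCP 4 d, replicate B stood apart, with a Spearman correlation across unigenes of 0.703 with A and 0.667 with C against 0.885 between A and C, and replicate pairs of the other groups lay between 0.809 and 0.891. Differences of the 3 genes that rest on that group are therefore given with and without replicate B. DESeq2 and the fits of all 7 groups were run with all libraries only. An endochitinase unigene took 15.6 to 21.4% of the counts in the CK libraries and 1.35 to 5.36% in the treated ones. Of the markers used to check the flesh label, the summed FPKM of 24 seed storage and oil body unigenes was 1634, 743 and 367 in CO2 4 d (A, B and C) and 30.9 to 80.8 in the other libraries, and most of it came from a legumin-like unigene, Cluster-16487.21336, at 1557, 676 and 317. Without that unigene the sum of the list was 77.0, 66.8 and 49.5 in CO2 4 d and 30.4 to 69.9 in the other libraries, and the part of the legumin-like unigene in the results below was not tested. Chlorophyll a-b binding proteins summed to 95.3 to 189 in CO2 4 d and to 184 to 554 elsewhere. RuBisCO small chains, the other green tissue marker, summed to 144.5 to 167.7 in CO2 4 d against 54.2 to 58.6 in CK 4 d and 121 to 294 in the other groups, so the markers of green tissue did not move together, and their part in the results was not tested.

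The 3 genes had 3 different time courses, given here as FPKM, the authors' read number scaled to unigene length and library depth. DkERF16 was found at a level above 1 FPKM in CO2 4 d and in no other group. Its FPKM there was 23.56, 11 and 5.26 in replicates A, B and C, from 316, 152 and 91 reads. No read was assigned to it in the 9 libraries of CK 0 d, CO2 1 d and CO2+1-MCP 1 d, and the remaining groups held 2 reads (CK 1 d), 7 reads (CK 4 d) and 3 reads (CO2+1-MCP 4 d) over their 3 libraries. A count of 0 over a group allows up to 3 reads there, which is 0.0523 CPM in CK 0 d, 0.0602 CPM in CO2 1 d and 0.0565 CPM in CO2+1-MCP 1 d (CPM, reads scaled to library size), so lower levels were not detectable at this depth. Such limits, and the intervals beside low counts below, cover counting error only.

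DkERF18 was high at 1 d in both treatments with CO2, and at 4 d in CO2 without 1-MCP. At 1 d its FPKM was 20.03, 19.52 and 22.17 in CO2, 19.04, 30.36 and 18.84 in CO2+1-MCP, and 2.26, 1.63 and 1.43 in CK. At 4 d it was 8.42, 7.37 and 24.02 in CO2, 0.49, 2.10 and 0.77 in CO2+1-MCP, and 0.12, 0.26 and 0 in CK. The CK 0 d libraries gave 0.29, 1.69 and 0.11. The 3 highest group means, CO2+1-MCP 1 d (22.7 ± 6.59, SD, n = 3), CO2 1 d (20.6 ± 1.41) and CO2 4 d (13.3 ± 9.32), overlapped each other, and none of their libraries overlapped the other 4 groups.

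DkERF19 was high in CO2 at both days. Its FPKM was 14.04, 9.57 and 11.74 in CO2 1 d, and 15.65, 9.34 and 58.84 in CO2 4 d, where replicate C stood far above the other libraries of the series. The control time course went from 1.66, 3.82 and 1.65 at 0 d through 3.54, 5.28 and 5.38 at 1 d to 0.71, 0.74 and 0.73 at 4 d. With 1-MCP added to CO2 it was 0.78, 0.98 and 3.27 at 1 d and 3.63, 4.49 and 3.69 at 4 d. In the order of group means, CO2 4 d (27.9 ± 26.9, SD, n = 3) and CO2 1 d (11.8 ± 2.24) overlapped and lay above all the other groups. CK 1 d, CO2+1-MCP 4 d, CK 0 d and CO2+1-MCP 1 d each overlapped the next in that order, and CK 4 d (0.727 ± 0.0153) lay below every library of the other groups.

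**Figure D1:**
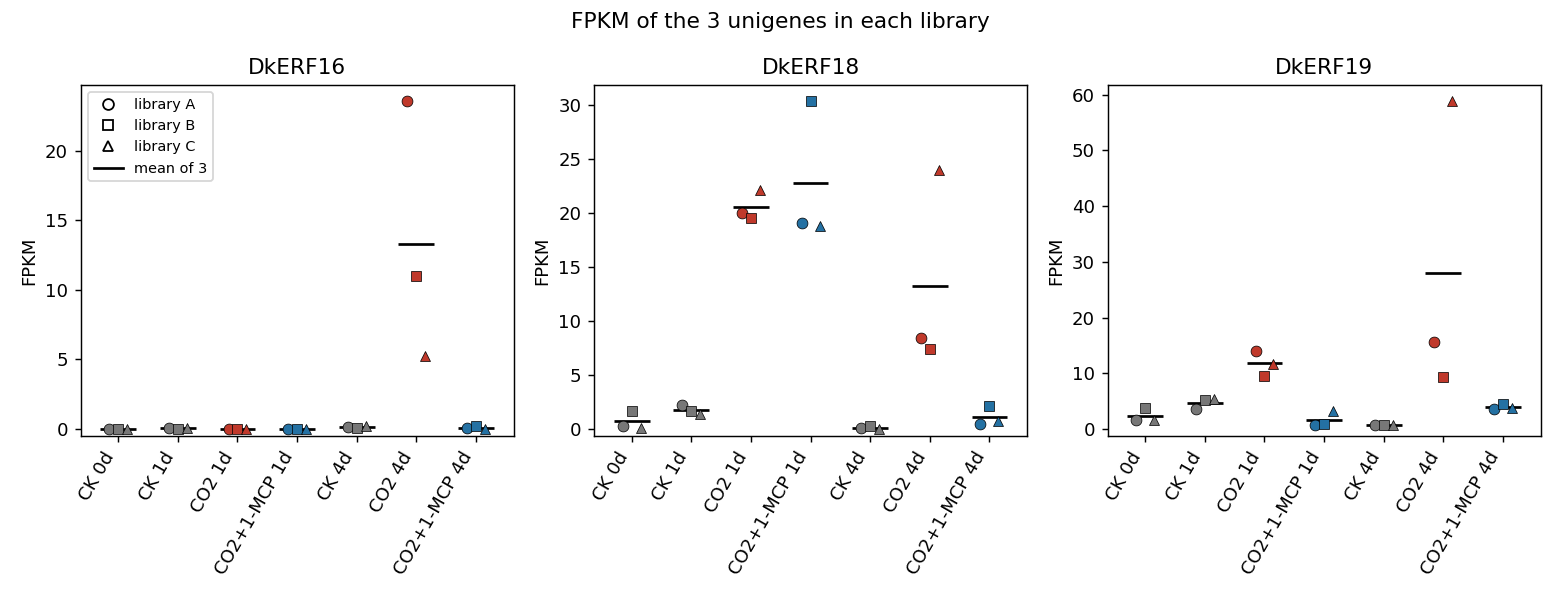
FPKM (y axis) of DkERF16, DkERF18 and DkERF19 in each library, by group (x axis), with circles, squares and triangles for replicates A, B and C and a line at the mean of 3. DkERF16 lies at 5.26 to 23.56 in CO2 4 d and at or below 0.22 elsewhere, DkERF18 is high in both CO2 treatments at 1 d, and DkERF19 peaks at 58.84 in CO2 4 d replicate C.

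The 3 genes also differed in their order within a library. DkERF19 was the highest of them in all 9 CK libraries and in the 3 libraries of CO2+1-MCP 4 d, and DkERF18 was the highest in the 6 libraries of the CO2 treatments at 1 d. In CO2 4 d, DkERF16 was the highest in replicates A and B and DkERF19 in replicate C. Of the summed mean FPKM of the 3 genes, DkERF18 made up 63.6% in CO2 1 d and 93.1% in CO2+1-MCP 1 d, while DkERF19 made up 51.3% in CO2 4 d, with 24.4% each for DkERF16 and DkERF18. Without CO2 4 d replicate C the order changed, to 45.9% for DkERF16, 33.2% for DkERF19 and 21% for DkERF18. That sum was 54.5 in CO2 4 d, 32.4 in CO2 1 d, 24.4 in CO2+1-MCP 1 d and 5.14 in CO2+1-MCP 4 d, against 1.0 in CK 4 d. Among the 340 unigenes with an AP2 domain, DkERF19 ranked 29 by mean FPKM in CO2 4 d and 124 in CK 4 d, DkERF18 ranked 43 in CO2 1 d and 215 in CK 4 d, and DkERF16 ranked 45 in CO2 4 d.

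The first question was what high CO2 did at 1 d, when the fruit had just left the containers. DkERF18 and DkERF19 rose, and DkERF16 could not be tested, with 0 reads in CO2 against 2 in CK. Read counts of 2 groups at a time were tested with the quasi-likelihood F test of edgeR, with p adjusted over all unigenes tested by the Benjamini–Hochberg method and a call at an adjusted p below 0.05. Log2 fold changes are given ± SE. In bulk flesh, fewer cells of a type and less RNA per cell cannot be told apart.

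DkERF18 was higher in CO2 than in CK at 1 d by 3.48 ± 0.293 on the log2 scale (adjusted p = 0.000426 by edgeR). DkERF19 was higher by 1.28 ± 0.291 (adjusted p = 0.0136 by edgeR). The libraries did not overlap for either gene. The share of all unigenes without overlap was counted only for CO2+1-MCP against CO2 at 4 d. Non-overlap in the other comparisons is given without that share. Both of the genes tested were called by edgeR, where 20.9% of all tested unigenes were called higher in this comparison. The call of DkERF19 did not hold without CK 1 d replicate A (log2 fold change 1.11, adjusted p = 0.0523 by edgeR) or in a fit of all 7 groups together (1.35, adjusted p = 0.0733).

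With 1-MCP added to CO2 at 1 d, neither DkERF18 nor DkERF19 passed the test against CO2 alone. For DkERF18, CO2+1-MCP differed from CO2 by 0.20 ± 0.297 on the log2 scale (adjusted p = 0.936 by edgeR), a difference smaller than its spread, and its sign turned without CO2+1-MCP 1 d replicate B (−0.14). For DkERF19, every CO2+1-MCP library lay below every CO2 library, with a mean FPKM of 1.68 ± 1.38 against 11.8 ± 2.24 (SD, n = 3) and a log2 fold change of −2.82 ± 0.567. That difference did not pass (adjusted p = 0.342 by edgeR). By edgeR, 0 of 56191 unigenes passed in this comparison (0% called), with 4167 at an unadjusted p below 0.05. DESeq2 called 810 unigenes, 0.884% of those it tested being lower, and DkERF19 was among them (log2 fold change −2.8, adjusted p = 0.000795 by DESeq2).

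Against CK at 1 d, CO2+1-MCP raised DkERF18 by 3.72 ± 0.388 on the log2 scale (adjusted p = 0.00127 by edgeR), in a comparison in which 18.5% of the tested unigenes were called higher. DkERF19 was below CK in every library, with a log2 fold change of −1.49 ± 0.577 that did not pass (adjusted p = 0.0882 by edgeR). Replicate C held the highest DkERF19 value of CO2+1-MCP 1 d, and without it the fold change was −2.3 (adjusted p = 0.0144 by edgeR, in a fit with 15.9% of unigenes called lower). The 1 d comparisons share groups, so they are not independent of each other.

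At 4 d all 3 genes rose in CO2 against CK, with no overlap between libraries. How many of all unigenes were without overlap here was not counted. The log2 fold changes were 6.55 ± 0.9 for DkERF16 (adjusted p = 0.0242 by edgeR), 6.66 ± 0.913 for DkERF18 (adjusted p = 0.0241) and 5.21 ± 0.708 for DkERF19 (adjusted p = 0.0241). Among all unigenes tested, 4.57% were called higher. In counts over the 3 libraries, DkERF16 had 559 reads in CO2 against 7 in CK, a ratio per total count of 79.2 (exact binomial 95% interval 38.2 to 198). DkERF18 had 383 reads against 3, a ratio of 127 (43.0 to 617), and DkERF19 had 1432 against 34. The mean FPKM of DkERF19 was 38.5 times that of CK.

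These 3 calls did not hold in every fit that left out a library. Leaving out any 1 of the 3 CK 4 d libraries, or CO2 4 d replicate B, edgeR called 0 unigenes of any kind, and the adjusted p of the 3 genes was 0.0533 to 0.139. Their log2 fold changes in those fits were 5.18 to 7.65. Without CO2 4 d replicate C, which was the highest for DkERF18 and DkERF19, all 3 were called, and DkERF19 was still higher by 4.35 (adjusted p = 0.0127 by edgeR).

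The comparison of CO2+1-MCP with CO2 at 4 d asked whether the levels differed when ethylene perception was blocked. All 3 genes lay lower with 1-MCP in every library, and none passed the test by edgeR, in which 0 of 62228 unigenes did (0% called, with 3883 at an unadjusted p below 0.05). The log2 fold change was −7.46 ± 1.19 for DkERF16, −3.56 ± 0.833 for DkERF18 and −2.89 ± 0.694 for DkERF19, at adjusted p = 0.159, 0.258 and 0.273 by edgeR. Libraries without overlap in this direction were found for 7.54% of the unigenes tested. DESeq2, which called 1619 unigenes and 2.38% of those tested as lower, called all 3 genes (adjusted p = 1.24e-07, 0.00157 and 0.00373). A fit of all 7 groups by edgeR called all 3 as well (adjusted p = 0.00604, 0.0254 and 0.0122), where 1405 of 90891 unigenes were called lower. Neither DESeq2 nor the fit of all 7 groups was run without CO2+1-MCP 4 d replicate B.

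Read counts give the size of the DkERF16 difference directly, at 559 reads in CO2 4 d against 3 in CO2+1-MCP 4 d, a ratio per total count of 164 (exact binomial 95% interval 55.8 to 797). Without replicate B of CO2+1-MCP 4 d, which held 2 of those 3 reads, the ratio was 353 (63 to 14000). Without replicate B of CO2+1-MCP 4 d, the library that stood apart, the log2 fold changes were −8.62 for DkERF16, −4.57 for DkERF18 and −3.12 for DkERF19 (adjusted p = 0.363, 0.363 and 0.407 by edgeR). In that replicate all 3 genes had the highest value of the group.

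Against CK at 4 d, every CO2+1-MCP library had more DkERF19 than every CK library, but the difference did not pass. The mean FPKM was 3.94 ± 0.48 against 0.727 ± 0.0153 (SD, n = 3), and the log2 fold change of 2.30 ± 0.390 did not pass (adjusted p = 0.0786 by edgeR), in a comparison with 0.303% of unigenes called. Without CO2+1-MCP 4 d replicate B it was 2.1 (adjusted p = 0.0258 by edgeR), in a fit with 5.59% of unigenes called. DkERF18 had too few reads to be tested, 26 against 3, a ratio per total count of 9.78 (exact binomial 95% interval 3.0 to 50.5), or 5.76 (1.52 to 32.2) from 11 reads without replicate B, and DkERF16 had 3 reads against 7. The 4 d comparisons share groups in the same way as those at 1 d.

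**Figure D2:**
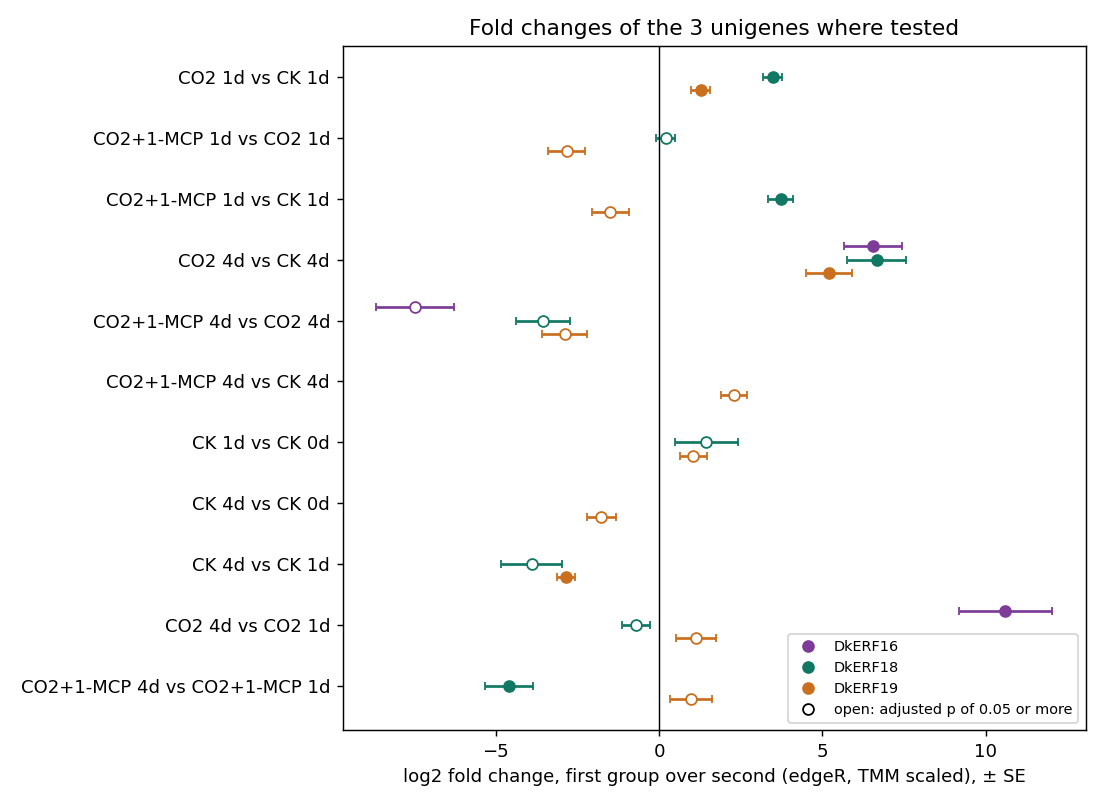
Log2 fold change ± SE (x axis, edgeR with TMM scaling) of each gene in each comparison in which it had enough reads (y axis), with filled points for an adjusted p below 0.05. All 3 points are filled for CO2 4 d against CK 4 d, and all 3 are open for CO2+1-MCP 4 d against CO2 4 d, where they lie at −7.46, −3.56 and −2.89.

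Change over storage was followed in the control, which had neither CO2 nor 1-MCP. Between 0 d and 1 d, time cannot be told apart from the day in the container. The same holds between 1 d and 4 d for the move out of it. From 0 d to 1 d, DkERF18 changed by 1.45 ± 0.962 and DkERF19 by 1.05 ± 0.403 on the log2 scale, and neither passed (adjusted p = 0.59 and 0.309 by edgeR, with 0.068% of unigenes called). The DkERF18 value was 3.23 without CK 0 d replicate B, 0.91 without CK 0 d replicate C and 1.12 to 1.61 without any other library. From 1 d to 4 d, DkERF19 fell by 2.84 on the log2 scale (SE 0.279, adjusted p = 0.0134 by edgeR), where 1.2% of unigenes were called lower. The corresponding value of DkERF18 was −3.90 ± 0.945, with no overlap between libraries and an adjusted p of 0.097 by edgeR. With the reads of another unigene of the same gene added, DkERF18 passed at −4.03 (adjusted p = 0.0383 by edgeR). The fall of DkERF19 was not called without CK 4 d replicate A, B or C or without CK 1 d replicate C, at −2.87 to −2.76 (adjusted p = 0.0543 to 0.0925 by edgeR). From 0 d to 4 d, DkERF19 was lower in every library by −1.77 ± 0.441 (adjusted p = 0.0898 by edgeR, with 4.66% of unigenes called).

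In CO2, DkERF16 rose from 1 d to 4 d. Set against the limit of 3 reads over the CO2 1 d group, its ratio per total count at 4 d was 151, or 93.9 without CO2 4 d replicate A. The exact binomial 95% lower limit of the ratio was 122 with all libraries, and the test passed (adjusted p = 0.00777 by edgeR, with 16.3% of unigenes called higher). The other genes did not pass, at −0.71 ± 0.433 for DkERF18 and 1.13 ± 0.613 for DkERF19 (adjusted p = 0.257 and 0.209 by edgeR). Both values leaned on CO2 4 d replicate C. Without it DkERF18 was lower at 4 d by −1.24 (adjusted p = 0.0458 by edgeR, in a fit with 13% of unigenes called lower), and DkERF19 differed by 0.24 (adjusted p = 0.705).

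In CO2+1-MCP, DkERF18 fell by 4.6 on the log2 scale from 1 d to 4 d (SE 0.73, adjusted p = 0.00931 by edgeR), where 11.1% of unigenes were called lower. Without CO2+1-MCP 4 d replicate B it fell by 5.56 (adjusted p = 0.00481 by edgeR). DkERF19 was higher at 4 d in every library, by 0.97 ± 0.644, and did not pass (adjusted p = 0.344 by edgeR). This was 0.75 without CO2+1-MCP 4 d replicate B and 1.84 without CO2+1-MCP 1 d replicate C, while leaving out CO2+1-MCP 1 d replicate A gave 0.58 (adjusted p = 0.455, 0.107 and 0.646 by edgeR). DkERF16 was not tested there.

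The difference of the CO2 effect between days was tested directly, as the log2 fold change of CO2 over CK at 4 d minus that at 1 d in a fit of 12 libraries. It was 3.10 ± 0.858 for DkERF18 (adjusted p = 0.0293 by edgeR) and 3.85 ± 0.725 for DkERF19 (adjusted p = 0.00468), and 10.3% of all unigenes were called higher. The median over all unigenes of this difference was 0.19. DkERF16 was also called (9.27 ± 2.18, adjusted p = 0.0191 by edgeR), but its 1 d groups held 2 reads in CK and 0 in CO2, so the fitted size is not a bound and depends on how empty groups are treated. For DkERF18, the larger effect at 4 d came with a lower level in CK, 0.127 FPKM against 1.77 at 1 d, and with a CO2 level whose change between days did not pass. The same held for DkERF19, with 0.727 FPKM in CK at 4 d against 4.73 at 1 d. Its change in CO2 between days, 1.13 ± 0.613, did not pass either and was 0.24 without CO2 4 d replicate C.

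The call of DkERF18 in this test was lost without any 1 of CK 1 d replicates A or B, CK 4 d replicates A or C, CO2 1 d replicates A, B or C, or CO2 4 d replicate C, with differences of 2.47 to 3.18 (adjusted p = 0.0518 to 0.0705 by edgeR), and in the fit of all 7 groups (3.12, adjusted p = 0.0864). That of DkERF16 was lost without CK 1 d replicate A (adjusted p = 0.0827 by edgeR) or C (adjusted p = 0.0803). DkERF19 kept its call in each of the 12 fits that left out a library, at 3.02 to 4.29 (adjusted p = 0.00107 to 0.0168 by edgeR).

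The effect of 1-MCP within CO2 was compared between days in the same way. DkERF18 had a difference of −3.86 ± 0.828 that did not pass by edgeR (adjusted p = 0.144, with 0.0271% of unigenes called) and passed by DESeq2 (−3.84, adjusted p = 0.000674). DESeq2 called 1703 of 69497 unigenes here, 1147 of them lower. Without CO2+1-MCP 4 d replicate B the difference of DkERF18 was −4.79 (adjusted p = 0.0865 by edgeR). For DkERF19 the effect of 1-MCP was −2.82 at 1 d and −2.89 at 4 d, with a difference of −0.12 ± 0.909 (adjusted p = 1 by edgeR), or −0.31 without CO2+1-MCP 4 d replicate B. Without CO2 4 d replicate C that difference was 0.79, and it was above 0 in 4 of the fits that left out a library. Both 1 d groups of DkERF16 were without reads, so the difference has no value for it.

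Some reads of DkERF16 and DkERF18 were assigned to a partner unigene annotated as the same gene. The partner of DkERF16, Cluster-16487.217972 (1013 bases), had 1.57, 0.83 and 0.94 FPKM in CO2 4 d, which is 6.4, 7.1 and 15.4% of the reads of the pair in replicates A, B and C. It held 1 read in the other 18 libraries, in CO2+1-MCP 4 d. It was also called higher in CO2 than in CK at 4 d (adjusted p = 0.0467 by edgeR), against a CK group without reads.

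The partner of DkERF18, Cluster-16487.22307 (550 bases), had 11.46, 13.57 and 11.86 FPKM in CO2 1 d, 11.36, 23.00 and 11.82 in CO2+1-MCP 1 d, and 1.77, 1.82 and 10.58 in CO2 4 d. Replicate C of CO2 4 d and replicate B of CO2+1-MCP 1 d were thus the high libraries in both unigenes of DkERF18. It was higher in CO2 than in CK at 1 d by 3.47 on the log2 scale (adjusted p = 0.0093 by edgeR). Its share of the reads of the pair was 24.9 to 30.2% in CO2 1 d and 11.5, 13.3 and 21.4% in CO2 4 d. The reads of such pairs can be split either way by the estimation of counts, and no partner unigene was found for DkERF19.

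**Figure D3:**
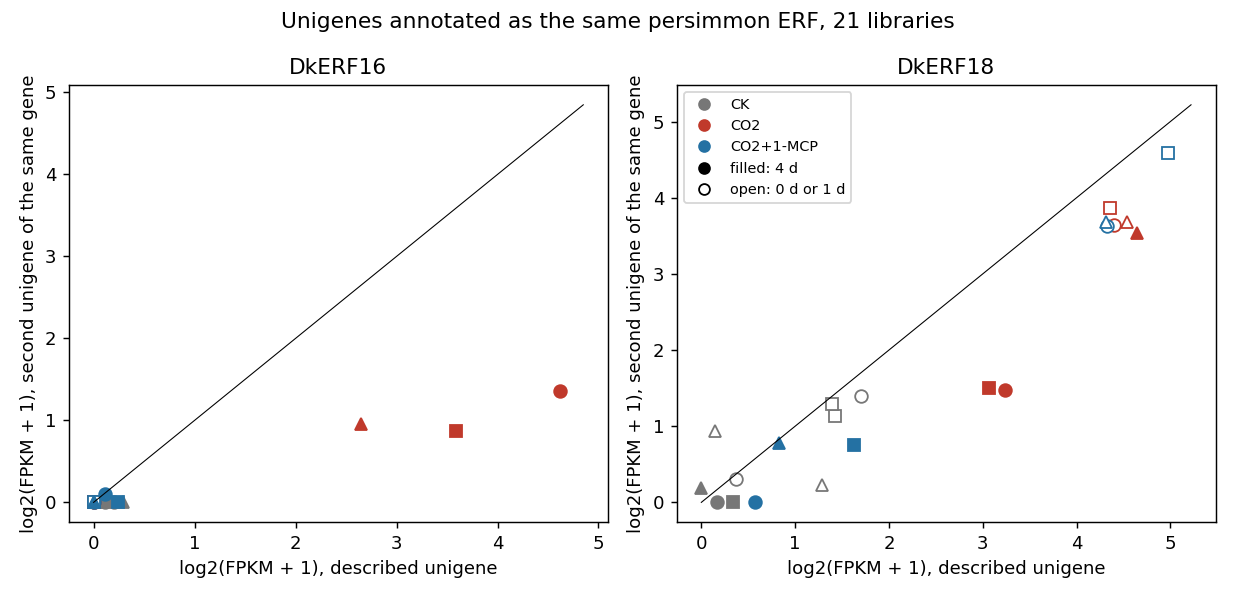
Log2(FPKM + 1) of the partner unigene (y axis, labelled second unigene) against the described unigene (x axis) for DkERF16 and DkERF18 in 21 libraries, with the colour for the treatment, filled points for 4 d, open points for 0 d and 1 d, circles, squares and triangles for replicates A, B and C, and a line of equality. The partner of DkERF16 rises above 0.5 in CO2 4 d alone, and both unigenes of DkERF18 are high in the same libraries.

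The libraries of CO2 4 d had pairwise Spearman correlations of 0.809 to 0.823 across unigenes, and the 3 genes did not follow the same order in them. DkERF16 was highest in replicate A and lowest in C, a range of 4.48-fold, whereas DkERF18 and DkERF19 were highest in C, with ranges of 3.26-fold and 6.30-fold. As percent of the group mean in A, B and C, DkERF16 stood at 177.5, 82.9 and 39.6, DkERF18 at 63.5, 55.5 and 181.0, and DkERF19 at 56.0, 33.4 and 210.6. Polygalacturonases, which cut pectin in softening fruit, had a summed FPKM of 183.2, 74.4 and 42.4% of their mean over 160 unigenes. The corresponding values were 154.2, 91.3 and 54.5% for XTHs and 162.6, 91.3 and 46.1% for ACC synthases, which make the precursor of ethylene. DkERF16 had the order of these 3 sums, and DkERF18 and DkERF19 did not. A single unigene, Cluster-16487.115103, held 13922 of the 17274 FPKM of the XTH sum in A. The same order was found for expansins (21977, 16805 and 11293 FPKM) and for pyruvate decarboxylases, enzymes of fermentation (1542, 706 and 572). It was thus not limited to sums of softening and ethylene synthesis. Other sums had other orders, with ethylene receptors at 132, 71 and 97% of their mean and GH9 endoglucanases at 18734, 20795 and 19456 FPKM in A, B and C. With 3 libraries this is a description, without a test, and what set the libraries apart was not tested.

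**Figure D4:**
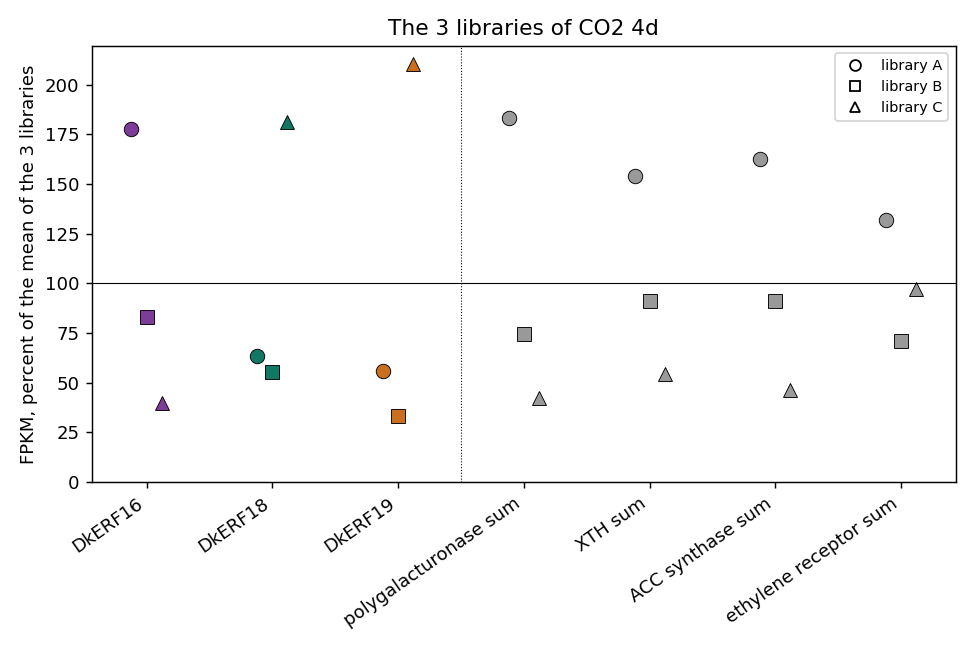
FPKM in the 3 libraries of CO2 4 d as percent of their mean (y axis), for the 3 genes (coloured) and for summed lists (grey), with circles, squares and triangles for replicates A, B and C. Replicate A is the highest for DkERF16 and for the polygalacturonase, XTH, ACC synthase and ethylene receptor sums, and replicate C is the highest for DkERF18 (181.0%) and DkERF19 (210.6%).

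Over the 21 libraries, log2(FPKM + 1) of DkERF16 and DkERF18 had a Pearson r of 0.246 and a Spearman rho of −0.163. The values were 0.56 and 0.119 for DkERF16 and DkERF19, and 0.528 and 0.581 for DkERF18 and DkERF19. The points share libraries and groups, so these are descriptions.

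To find the genes most like each of the 3, the same Pearson r was computed for every annotated unigene whose mean reached 5 FPKM in some group, and the 5 highest were taken. DkERF16, without reads in 3 groups, had many close matches, 353 of 28336 unigenes at an r of at least 0.9 and 39 at 0.99. Its 5 highest reached 5 FPKM through CO2 4 d alone, with means of at most 0.2 FPKM in every other group. Their r was thus set mostly by that group, and Spearman in place of Pearson kept 0 of the 5. The closest were an O-glucosyltransferase rumi homolog (Cluster-16487.3032, r = 0.997), with 23.27, 10.38 and 4.87 FPKM in CO2 4 d, and a SCAB1-like unigene, SCAB1 being an actin-binding protein of stomatal closure in Arabidopsis (Cluster-16487.143635, r = 0.997). The latter rested on 17, 7 and 2 reads over 223 bases in CO2 4 d. The remaining ones were a hypothetical protein (r = 0.997), an RVP_2 domain protein (0.996), the name of a retroviral aspartyl protease domain, and an uncharacterized protein (0.996).

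DkERF18 had 86 unigenes at an r of at least 0.9. The closest was an NPK1-like mitogen-activated protein kinase kinase kinase (Cluster-16487.36263, r = 0.95), with a mean FPKM of 125 ± 11 in CO2 1 d, 86.6 ± 16.8 in CO2+1-MCP 1 d, 45 ± 16.6 in CO2 4 d and 7.97 ± 2.28 in CO2+1-MCP 4 d (SD, n = 3). A UDP-glycosyltransferase (r = 0.949) and a bZIP factor (r = 0.941) were also among the 5. The remaining pair belongs to the ethylene pathway. DkERF25 (Cluster-16487.59419, r = 0.949) had 78.7 ± 6.41 FPKM in CO2 1 d against 11.7 ± 3.78 in CK 1 d, and an EBF1-like unigene (Cluster-16487.123321, r = 0.946) had 121 ± 27.7 against 27.9 ± 1.39.

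DkERF19 had no unigene at an r of 0.9, and its matches were looser. They were a mavicyanin-like copper protein (Cluster-21724.0, r = 0.856), a 7-deoxyloganetic acid glucosyltransferase (r = 0.847), an AFC2-like protein kinase (r = 0.841), a 3-phosphoshikimate 1-carboxyvinyltransferase of the shikimate pathway (Cluster-16487.68478, r = 0.823) and a WRKY3-like factor (r = 0.819). In CO2 4 d, replicate C was the highest library for mavicyanin (5.12, 1.27 and 15.7 FPKM), the glucosyltransferase and the WRKY3-like factor, as for DkERF19, and replicate A was the highest for the AFC2-like kinase (16.15, 14.87 and 14.04) and the shikimate enzyme (18.52, 11.34 and 13.9). The shikimate enzyme was low in CO2+1-MCP 1 d like DkERF19, at 2.55 ± 0.93 FPKM against 9.63 ± 0.931 in CO2 1 d and 7.25 ± 0.67 in CK 1 d.

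**Figure D5:**
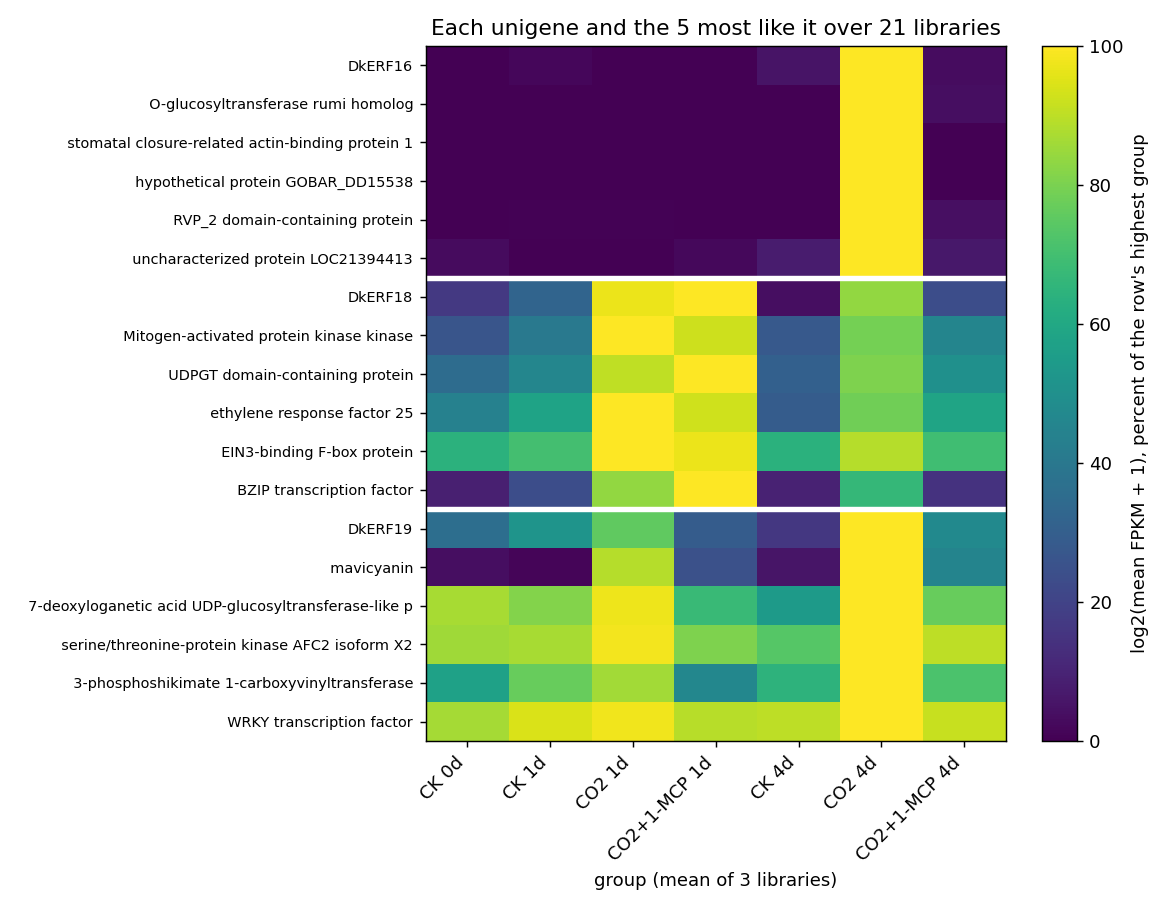
Group means as log2(mean FPKM + 1), in percent of the highest group of each row (colour), for the 3 genes and the 5 unigenes most like each over 21 libraries (rows) in the 7 groups (columns). The DkERF16 rows are bright in CO2 4 d alone, the DkERF18 rows in CO2 1 d, CO2+1-MCP 1 d and CO2 4 d, and the rows below DkERF19 have their maximum in CO2 4 d but most are also bright in other groups.

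Of the 127 persimmon-named ERF unigenes, 77 were tested in CO2 against CK at 1 d, of which 53 were called higher and 11 lower by edgeR, where 20.9% of all unigenes were called higher and 19.6% lower. Their median log2 fold change was 3.47, that of DkERF18 being 3.48, against −0.05 over all unigenes. At 4 d, 13 of 57 were higher and 0 lower, with a median of 0.97 against −0.08, where DkERF16, DkERF18 and DkERF19 stood at 6.55, 6.66 and 5.21. Of all unigenes, 4.57% were called higher at 4 d and 1.76% lower. The unigene with the highest mean of the AP2 family, DkERF10 (Cluster-16487.32289), was at 1749 to 2214 FPKM in CO2 1 d and at 10.81 to 20.39 in CO2 4 d. From 1 d to 4 d in CO2, 46 of 78 persimmon-named ERFs were called lower and 13 higher, with a median of −2.2, where 15% of all unigenes were called lower and 16.3% higher.

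Upstream of the ERFs, 47 unigenes were annotated to ethylene synthesis (ACC synthases and ACC oxidases). Over all unigenes, 20.9% were called higher in CO2 than in CK at 1 d and 4.57% at 4 d by edgeR. The medians were −0.05 and −0.08. Of the ethylene synthesis unigenes, 20 of 22 tested were called higher and 2 lower at 1 d by edgeR (median log2 fold change 4.38). At 4 d, 11 of 18 were higher and 0 lower (median 3.29). The highest of them, an ACC oxidase (Cluster-16487.134131), had a mean FPKM of 1790 ± 191 in CO2 1 d and 2802 ± 49.2 in CO2+1-MCP 1 d (SD, n = 3). Summed ACC synthase FPKM instead was 39.2 to 138 in CO2 4 d and 3.65 to 13.5 in the other libraries, as DkERF16 was high in CO2 4 d.

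Ethylene receptors and signalling took in 82 unigenes. At 1 d, 1 of 40 tested was called higher and 24 were called lower in CO2 against CK (median −1.45), and at 4 d 13 of 46 were higher and 0 lower (median 0.80, by edgeR). The CO2 effect was called higher at 4 d than at 1 d for 28 of the 49 tested, against 10.3% of all unigenes. Fermentation enzymes, pyruvate decarboxylase and alcohol dehydrogenase, which respond to low oxygen, had 41 of 56 unigenes higher and 3 lower in CO2 at 1 d, with a median of 5. From 1 d to 4 d in CO2, 32 of 58 were called lower and 7 higher, where 15% of all unigenes were called lower and 16.3% higher. For CO2 against CK, 20.9% of all unigenes were called higher and 19.6% lower at 1 d. At 4 d these shares were 4.57% and 1.76%. In CO2+1-MCP against CO2 at 4 d, 0 unigenes of any of these lists were called by edgeR, as for all unigenes.

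The unigenes of DkXTH9, whose promoter DkERF16 and DkERF19 have been described to activate, were read beside them. They were chosen for this role and not by the rule for named genes. Of 12 unigenes annotated as DkXTH9, 9 were tested in CO2 against CK at 4 d, and lower calls among them were not counted. By edgeR, 5 were called higher, against 4.57% of all unigenes. The highest, Cluster-16487.110874, had 708.25, 416.58 and 280.17 FPKM in CO2 4 d, 171.96, 188.14 and 166.66 in CO2+1-MCP 4 d and 111.58, 122.54 and 114.98 in CK 4 d. Within CO2 4 d its order of libraries was that of DkERF16 and of several of the sums above. It was higher in CO2 than in CK by 0.71 ± 0.183 on the log2 scale at 1 d (adjusted p = 0.022 by edgeR), when DkERF16 had no reads and DkERF19 was higher, and by 2.17 ± 0.468 at 4 d (adjusted p = 0.0472). Its difference between CO2+1-MCP and CO2 at 4 d, −1.63 ± 0.466, did not pass (adjusted p = 0.415 by edgeR), nor did the −1.86 ± 0.6 without CO2+1-MCP 4 d replicate B (adjusted p = 0.507). Over the 105 XTH unigenes, 10 of 62 were called higher and 4 lower in CO2 against CK at 4 d. Their median was −0.19, near the −0.08 over all unigenes, so the rise of the highest DkXTH9 unigene was not shared by the median of its family. The XTH with the highest mean, an XTH10 unigene (Cluster-16487.115103), was at 13922, 6962 and 3783 FPKM in CO2 4 d against 123 to 134 in CK 4 d, and it was lower in CO2 than in CK at 1 d (log2 fold change −3.04 ± 0.269, adjusted p = 0.000506 by edgeR). Among 55 GH9 endoglucanases, enzymes that cut cellulose, 1 of 20 was higher and 4 were lower in CO2 at 4 d, where 4.57% of all unigenes were called higher and 1.76% lower.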

How the data were processed

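RNA-seq libraries of persimmon flesh (21, in 7 groups of 3) were sequenced as paired-end reads on an Illumina HiSeq instrument, and a transcriptome was assembled with Trinity without a reference genome. The submitters' processing notes name RSEM, with no version. The deposited table holds expected counts, the read numbers estimated by the authors per unigene, of which 24.5 to 37.6% per library were not whole, and the deposited FPKM values, which the authors scaled to unigene length and depth. Reads shared by similar unigenes are split by estimation, which can move values between unigenes of the same gene.

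Here the expected counts were rounded and tested with edgeR 4.0.16 in R 4.3.3 (filterByExpr, TMM scaling, quasi-likelihood F test, 2 groups per fit, or 4 groups for differences between days), with Benjamini–Hochberg adjustment over all unigenes tested and a threshold of 0.05. The study tested pairs of conditions with DESeq. On simulated counts the scripts were tested before use. The simulated spread between libraries was smaller than in these fits, and changes were planted only in unigenes with many reads. The simulation therefore does not cover low counts such as those of DkERF16 in CK. Relative to total counts, TMM moved log2 fold changes by −0.32 to 0.08. Groups followed the sample labels. Named unigenes were the 3 genes, other unigenes annotated as the same persimmon gene, the 5 unigenes most correlated with each over log2(FPKM + 1), and the unigene with the highest mean in each list. The members and lists were chosen with earlier results of these data known. Pathway lists came from annotation columns. The Pfam identifiers set for chlorophyll a-b binding proteins, RuBisCO small subunit and expansin matched 0 unigenes, so Swiss-Prot names were used for them, chosen after seeing the data, and 1 of the 24 seed unigenes matched through a species name only. Expansins summed to 3874 to 21977 FPKM over all libraries. Alternatives were RLE factors, no filter, DESeq2 1.42.0, all 7 groups in a fit, a replicate block, summed unigenes and each library left out. The count ratios, the shares and the DkXTH9 test without a library were chosen after seeing the data.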

Additional observations from a re-analysis of the deposited data

Results flagged for a closer look

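The effect of CO2 against CK differed between 4 d and 1 d by the test of the difference itself for all 3 genes. The difference on the log2 scale was 9.27 for DkERF16, 3.10 for DkERF18 and 3.85 for DkERF19 (adjusted p = 0.0191, 0.0293 and 0.00468 by edgeR). For DkERF16 the 1 d groups held 2 reads in CK and 0 in CO2, so its size is not a bound. Of all unigenes tested, 10.3% were called higher. The call of DkERF18 was lost in most fits that left out a library and in the fit of all 7 groups. That of DkERF16 was lost without CK 1 d replicate A or C, and DkERF19 kept its call in each of the 12 fits that left out a library.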

How the results depend on the processing

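Of 383 alternative values of the log2 fold changes, 322 kept direction and side of the threshold, 35 lost the call, 20 gained it and 6 changed sign. The number of the 3 genes called changed as follows. For CO2 against CK at 1 d (2 called), the fit of all 7 groups gave 1 and leaving out a library 1 to 2. For CO2+1-MCP against CO2 at 1 d (0), no filter and DESeq2 each gave 1. For CO2+1-MCP against CK at 1 d (1), leaving out a library gave 1 to 2. For CO2 against CK at 4 d (3), it gave 0 to 3. For CO2+1-MCP against CO2 at 4 d (0), all 7 groups, no filter and DESeq2 each gave 3. For CO2+1-MCP against CK at 4 d (0), DESeq2 gave 1 and leaving out a library 0 to 1. For CK 4 d against 0 d (0), DESeq2 gave 1. For CK 4 d against 1 d (1), summed unigenes and DESeq2 gave 2 and leaving out a library 0 to 1. For CO2 4 d against 1 d (1), it gave 1 to 2. For the CO2 effect between days (3), all 7 groups gave 2 and leaving out a library 1 to 3. For the 1-MCP effect between days (0), no filter and DESeq2 gave 1. The cause was not tested.

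The replicate letters were not taken as pairing the libraries, since in 0 of 21 pairs of groups did every letter correlate above 0.1 (r from −0.178 to 0.485). That rule cannot exclude a factor shared by some libraries of a letter. The r of letter C was 0.052 to 0.377 over the pairs. Between CO2 4 d and CO2+1-MCP 4 d, r was 0.035 for A, 0.485 for B and 0.377 for C. With the replicate block, 1 gene was called for CO2 against CK at 1 d, 0 at 4 d, 0 for CK 4 d against 1 d and 2 for the CO2 effect, and the DkERF19 difference of the 1-MCP effect turned to 0.42.

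That difference was −0.52 to 0.79 with a library left out, at 0.01, 0.72, 0.03 and 0.79 without CO2+1-MCP 4 d replicate C, CO2+1-MCP 1 d replicate C, CO2 1 d replicate B and CO2 4 d replicate C. DkERF18 in CO2+1-MCP against CO2 at 1 d was −0.14 to 0.37. Over all unigenes, edgeR called 4 higher and 17 lower for the 1-MCP effect between days, and 1 and 0 with RLE factors. Of the 5 unigenes most like DkERF16, DkERF18 and DkERF19, log2(FPKM + 0.1) kept 2, 3 and 4, no minimum level 3, 5 and 5, Spearman 0, 1 and 2, and 7 group means 1, 1 and 0. Groups of 3 libraries and counts of 7 or fewer limit the control values of DkERF16 and DkERF18.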
